A study of Bubalus bubalis with 3 samples.

Results

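The microRNAs miR-126-5p and miR-126-3p, cut from the 5′ and 3′ arms of 1 hairpin, were examined in the fat of Chinese swamp buffalo (Bubalus bubalis), a water buffalo kept for draught and meat. They were chosen by name, as bta-miR-126-5p and bta-miR-126-3p, and are 2 of the 622 miRNA names in the deposited table, of which 396 are known bovine miRNAs. The series consists of 1 group of 3 small RNA libraries from adipose tissue of calves aged 6 months, called libraries 1, 2 and 3 after their titles. No genotype, treatment, depot or sex is given for the animals, and whether the libraries stem from different animals is not stated. The SDs and p-values below thus describe the spread of these samples alone, and that spread may be technical. With 1 group there is no contrast between conditions, and the comparisons below are between the arms, with other miRNAs and between libraries.

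The miR-126 hairpin lies in an intron of EGFL7, a gene of endothelial cells, and is released from its transcript. In mice and zebrafish its loss leaves vessels fragile and leaky. The 3p arm is known to repress SPRED1 and PIK3R2, which restrain signalling from vascular endothelial growth factor. The 5p arm is known in mouse endothelium to repress Dlk1, which also holds back fat cell differentiation. Each adipocyte lies beside capillaries, whose endothelium delivers fatty acids to it. Only small RNAs were measured here, so neither EGFL7 nor these target transcripts were read, and the cells of origin were not measured. In tissue RNA of this kind, fewer cells of a type and less RNA per cell cannot be told apart.

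Values are TPM as deposited. Each library's column adds up to the same total within rounding, so TPM counts reads of a miRNA per fixed number of miRNA reads in that library, with no scaling by length visible. From the steps between low values the depth was estimated at 6870000, 6770000 and 5480000 reads in libraries 1, 2 and 3. Of the 622 names, 166 averaged 10 TPM or more and are called tested names below, and 91.6% of these were lowest in library 2. Size factors, which set the typical tested name equal between libraries, were 1.39, 0.609 and 1.16, so library 2 stood apart from the others on this scale. The most abundant name, miR-10b, had 265058, 488469 and 403939 TPM in libraries 1, 2 and 3. As each column has a fixed total, more of 1 name leaves less for the others. Shares and SDs of both arms without miR-10b in the total are given at the end.

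miR-126-5p was one of the most abundant miRNAs of the tissue, and miR-126-3p was present at a level well above most names. miR-126-5p had 24511, 12638 and 23344 TPM in libraries 1, 2 and 3, a mean of 20165 ± 6544 TPM (SD, n = 3). It was lowest in library 2, and libraries 1 and 3 were close to each other. miR-126-3p had 963, 585 and 886 TPM, a mean of 811 ± 199.9 TPM (SD, n = 3), in the same order over the libraries. The lowest 5p value exceeded the highest 3p value, so the ranges of the arms did not overlap.

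As shares, miR-126-5p made up 2.45%, 1.26% and 2.33% of the reads in libraries 1, 2 and 3. The 95% Wilson intervals ran over 2.44 to 2.46%, 1.26 to 1.27% and 2.32 to 2.35%, from about 168300, 85600 and 128000 reads. The shares of miR-126-3p were 0.0963%, 0.0585% and 0.0886%, with intervals of 0.0940 to 0.0987%, 0.0567 to 0.0603% and 0.0861 to 0.0911%. These intervals cover counting error only and are far narrower than the spread between libraries, so depth does not limit the precision of either arm. Both arms together held 2.10% ± 0.674 of TPM (SD, n = 3).

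**Figure D1:**
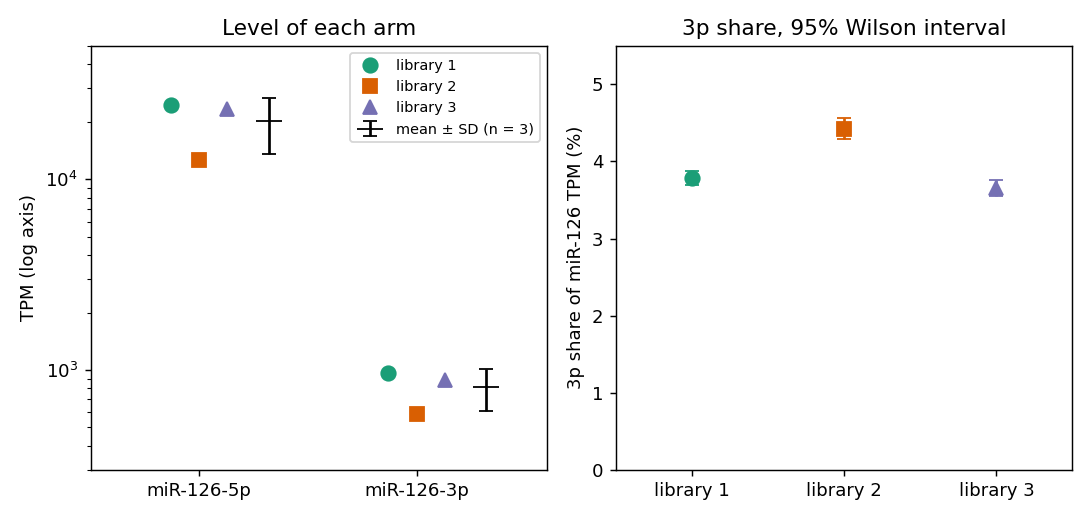
Left, TPM of each miR-126 arm (log axis) in libraries 1, 2 and 3, with the mean ± SD (n = 3) beside the points. Right, the 3p arm as a percentage of the TPM of both arms in each library, with 95% Wilson intervals; library 2 is lowest for both arms and has the highest 3p share, 4.42%.

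By mean level miR-126-5p ranked 7 and miR-126-3p ranked 43 among the 622 names, above 159 and 123 of the 166 tested names. The rank of the 5p arm was 6, 9 and 5 in libraries 1, 2 and 3. That of the 3p arm was 47, 41 and 43. Thus library 2, where the share of each arm was lowest, held the lowest rank of miR-126-5p and the highest rank of miR-126-3p.

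The neighbours of miR-126-5p in this order are miR-10a, miR-30a-5p and miR-27b above it and miR-100, miR-3600 and miR-99b below it. Differences were taken within each library as log2(TPM + 1), miR-126-5p minus the neighbour. They were larger than their SD, with 1 sign in all 3 libraries, for miR-30a-5p (-0.69 ± 0.46) and miR-3600 (0.22 ± 0.18). The other 4 neighbours are not separated from miR-126-5p beyond the spread. Among them, miR-27b, from a cluster active in vessel growth, differed by -0.15 ± 0.22. miR-126-5p had nearly the same mean as miR-100 (20165 ± 6544 TPM, against 20028 ± 4994 TPM), yet the difference was 0.33, -1.001 and 0.60 in libraries 1, 2 and 3. The HOX-cluster miR-10a behaved alike, with 0.01, -1.99 and 0.04, and so did miR-99b, with 0.65, -0.47 and 0.91. For these 3 names library 2 stands apart, because each of them was highest there while miR-126-5p was lowest.

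The neighbours of miR-126-3p are miR-451, miR-151-3p and miR-145 above it and miR-195, miR-22-3p and miR-199b below it, with means between 758 and 1061 TPM. Of these 6, only miR-151-3p differed by more than the SD with 1 sign in all 3 libraries (-0.24 ± 0.21 for miR-126-3p minus miR-151-3p). In library 2 that difference was -0.015, with 584.8 against 590.9 TPM, so the sign there rests on nearly equal values. The other neighbours did not hold 1 sign in all 3 libraries. The rank of miR-126-3p is thus not settled among these names. Names farther off were not screened in this way, and miR-146a, at rank 53, was also not separated from it (0.80 ± 0.81 for miR-126-3p minus miR-146a).

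**Figure D2:**
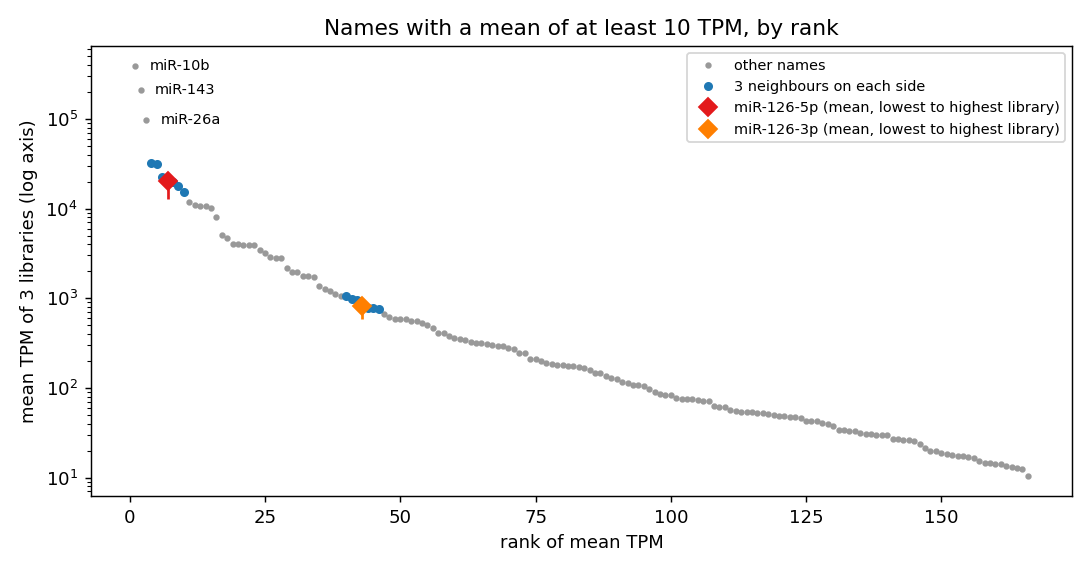
Mean TPM (log axis) of the 166 tested names (10 TPM or more on average) against their rank, with both miR-126 arms as diamonds, vertical lines from the lowest to the highest library, and their 3 neighbours on each side in blue. miR-126-5p ranks 7 and miR-126-3p ranks 43, below the 3 dominant names miR-10b, miR-143 and miR-26a.

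The arms of a hairpin are released together from 1 precursor, and one of them is usually kept in the silencing complex while the other is degraded. How the reads were divided between the miR-126 arms was therefore asked within each library, where depth and tissue are shared. miR-126-5p exceeded miR-126-3p by 25.5, 21.6 and 26.4 times in libraries 1, 2 and 3, a mean ratio of 24.5 ± 2.52 (SD, n = 3). The 5p arm was the higher one in 3 of 3 libraries.

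On the log2(TPM + 1) scale the difference, 5p minus 3p, was 4.67, 4.43 and 4.72, with a mean of 4.61 ± 0.15 (SD, n = 3). In limma, fitted over the 20 hairpins with both arms listed and 10 TPM or more on average in the more abundant arm, its standard error was 0.29 and its 95% interval 4.01 to 5.20. The adjusted p in limma with Benjamini-Hochberg adjustment over the 20 hairpins was 2.69e-18. That p leans on a spread pooled over hairpins whose own SDs ranged between 0.14 and 1.25. On miR-126 alone, an exact permutation test that flips signs (two-sided) gave p = 0.25, the smallest that 3 libraries allow. Of the 20 hairpins 85% were called at an adjusted p below 0.05 in limma, 55% of the 20 towards 5p and 30% towards 3p. A hairpin entered through its more abundant arm alone, which favours large differences, so these shares are partly set by that rule. The less abundant arms had a median of 6.17 TPM. The hairpins not called, miR-142, miR-411c and miR-423, averaged 10 TPM or more in both arms. The arms differ in sequence, and how far ligation or amplification favours either of them was not tested.

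In that order miR-126 took place 6 from the 5p end. Next above it were miR-21 (10.22 ± 0.19, SD, n = 3), miR-30b (8.21 ± 0.49) and miR-6119 (6.75 ± 0.27). Next below it were miR-17 (3.87 ± 0.50), a member of the proliferation-linked miR-17-92 cluster, miR-1388 (3.84 ± 0.47) and miR-424 (2.96 ± 0.55). The 3p arm of miR-30b had 1.0, 0.1 and 0.7 TPM, under the limit of 3 reads in library 2. The difference of miR-30b thus depends on the pseudocount. By absolute size the difference of miR-126 took place 9 of 20, close to the median absolute difference of 4.10. That place depends on the pseudocount. The 5p arm of miR-369, next in order at -4.33, was listed at 0, 0 and 0.2 TPM. Each of these values lies under the limit of 3 reads. With a pseudocount of 0.1 the difference of miR-369 was -7.13 and miR-126 took place 10. With a pseudocount of 10 miR-369, already below miR-126, was at -1.66. The rise of miR-126 to place 7 there came from other hairpins. The SD of miR-126 over libraries was the second smallest of the 20, after that of miR-423 (0.14), and the median SD was 0.43. Next came miR-142 (0.16) and miR-21 (0.19), whose less abundant arms averaged 82.3 and 2.17 TPM. How far these SDs follow from the level of the less abundant arm was not tested. The arm ratio of miR-126 was thus of ordinary size among the 20 hairpins, many of which have a less abundant arm below 10 TPM. Among hairpins averaging 10 TPM or more in both arms, only miR-22 (-4.98) had a larger absolute difference than miR-126. The spread of the miR-126 ratio between libraries was small.

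**Figure D3:**
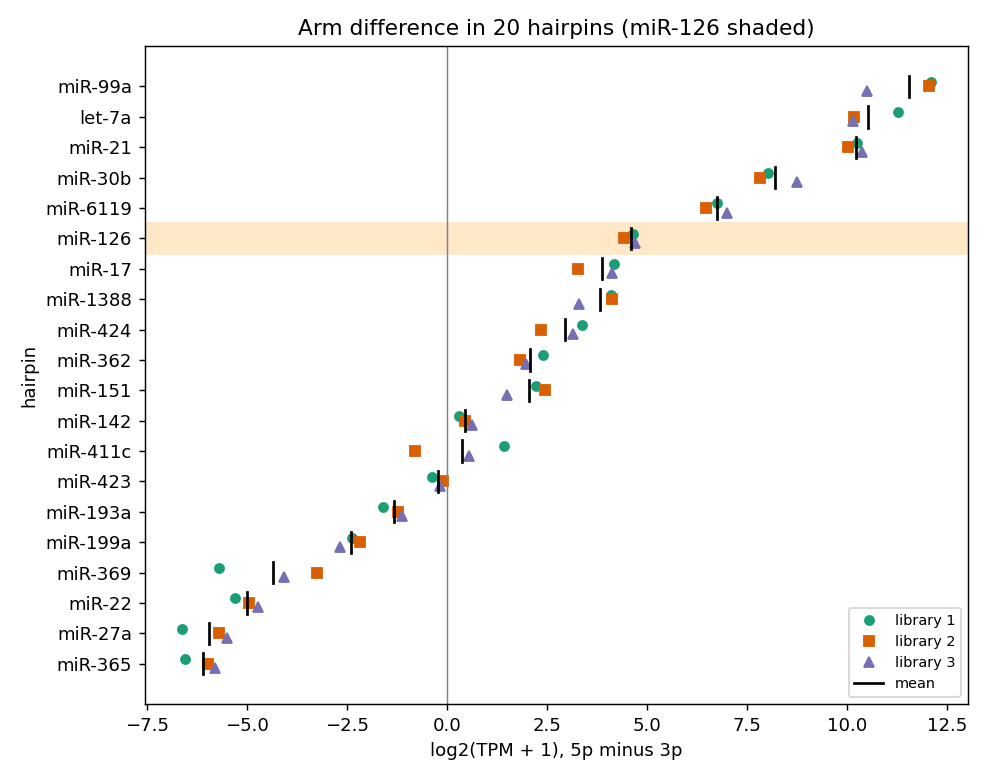
Difference of log2(TPM + 1), 5p minus 3p, for the 20 tested hairpins in libraries 1, 2 and 3, with the mean as a black bar; miR-126 is shaded. The points of miR-126 lie between 4.43 and 4.72, and hairpins right of 0 have more of the 5p arm.

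The less abundant arm of miR-126 was itself well represented. At 811 ± 199.9 TPM (SD, n = 3), miR-126-3p had the second highest mean among the less abundant arms of the 20 hairpins, after miR-151-3p at 987 ± 343 TPM. miR-199a-5p (358 ± 137 TPM), miR-423-5p (179 ± 68.5 TPM) and miR-142-3p (82.3 ± 92.9 TPM) came next, and the median of the 20 was 6.17 TPM. miR-126-3p also exceeded the more abundant arm of 14 of the other 19 hairpins. No test was made of these levels, which follow from the abundance of the hairpin as well as from its arm ratio.

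The share of miR-126-3p in the TPM of both arms was 3.78%, 4.42% and 3.66% in libraries 1, 2 and 3, a mean of 3.95% ± 0.411 (SD, n = 3). The 95% Wilson intervals were 3.69 to 3.87%, 4.29 to 4.56% and 3.56 to 3.76%. Those of libraries 1 and 3 overlap, and that of library 2 lies above both. The higher 3p share in library 2 is therefore larger than counting error between these libraries. It is a difference between single libraries with no replicate of its own, and library 2 is also the one whose tested names were mostly lowest. Whether these move together by a common cause was not tested.

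Between libraries, both arms varied less than the typical miRNA before scaling. The SD of log2(TPM + 1) was 0.53 for miR-126-5p and 0.38 for miR-126-3p, against a median of 0.66 over the 166 tested names. Of those names, 48 had a smaller SD than miR-126-5p and 18 a smaller one than miR-126-3p. The spread of both arms came mostly from library 2: without it the SDs were 0.050 and 0.085.

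The fold of library 1 over library 2 was 1.94 for miR-126-5p and 1.65 for miR-126-3p, against a median of 2.21 over the tested names. For library 3 over library 2 these folds were 1.85 and 1.51, against a median of 1.94. Both arms were therefore lower in library 2 by less than the median tested name was. After division by size factors miR-126-5p had 17660, 20767 and 20177 TPM and miR-126-3p had 694, 961 and 766 TPM in libraries 1, 2 and 3. On that scale both arms were highest, not lowest, in library 2. The SD of log2 values was then 0.12 for miR-126-5p and 0.24 for miR-126-3p, against a median of 0.29, with 25 and 63 tested names below them. Which arm varied less thus depends on the scaling, with miR-126-3p the steadier as deposited and miR-126-5p the steadier after size factors.

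Likeness to other miRNAs was measured in a way that does not depend on scaling, as the SD over the 3 libraries of the log2 ratio, arm over miRNA, of TPM + 1. It was computed for the 93 other known miRNAs with a mean of at least 100 TPM. With 3 libraries it is a description of these libraries, and by it alone some names will lie near any profile. Nearest to miR-126-5p were miR-181b (SD 0.038), miR-101 (0.047), miR-92a (0.053), miR-30d (0.059) and miR-140 (0.068), against a median of 0.27. miR-181b, which dampens inflammatory signalling in endothelium, had 356, 193 and 350 TPM, so that miR-126-5p exceeded it by 66.8 times on average. miR-101 had 798, 410 and 803 TPM, with miR-126-5p at 30.2 times its level on average. Both are low in library 2 and nearly equal in libraries 1 and 3, as miR-126-5p is. The vessel list described below did not lie together by this measure. Its members miR-181b, miR-101 and miR-92a were near miR-126-5p, but miR-10a (1.17), miR-100 (0.86) and miR-146a (0.74) were far from it.

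Nearest to miR-126-3p were miR-1468 (SD 0.034), miR-143 (0.047), let-7b (0.072), miR-92a (0.10) and miR-30d (0.11), against a median of 0.30. miR-92a, of the miR-17-92 cluster and a brake on vessel growth in mice, and miR-30d thus stood among the nearest 5 of both arms. miR-143, taken below as a smooth muscle marker, had 254722, 153646 and 220689 TPM. Its level was 8.01 ± 0.05 log2 units above that of miR-126-3p (difference of miR-126-3p minus miR-143, -8.01). Between the arms themselves the SD was 0.15. By this measure 19 of the 93 miRNAs lay nearer to miR-126-5p than miR-126-3p did, and 12 lay nearer to miR-126-3p than miR-126-5p did. The arms of this hairpin were thus not each other's nearest profile in these libraries.

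Farthest from miR-126-5p were miR-10a (1.17), the imprinted miR-409a (1.14) and the white blood cell miR-142-5p (1.13). Farthest from miR-126-3p were miR-142-5p (1.18), the inflammatory miR-146b (1.08) and miR-409a (1.08). miR-10a was highest in library 2, and miR-409a, miR-142-5p and miR-146b were highest in library 1, where neither arm of miR-126 stood apart from library 3.

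**Figure D4:**
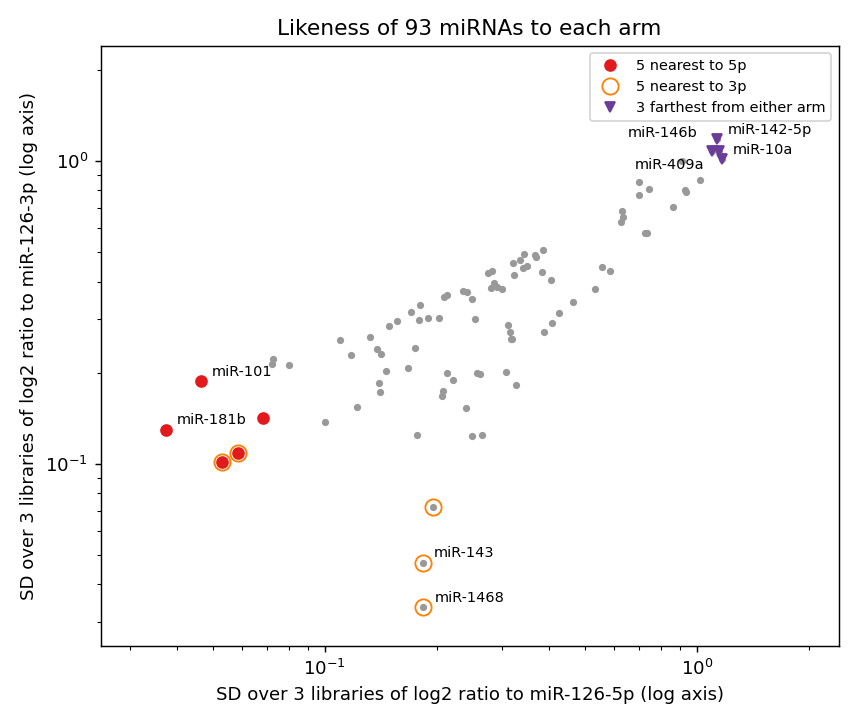
SD over the 3 libraries of the log2 ratio to miR-126-5p (horizontal, log axis) and to miR-126-3p (vertical, log axis) for 93 known miRNAs with a mean of at least 100 TPM; a small SD means a like profile. Filled red points are the 5 nearest to miR-126-5p, open orange circles the 5 nearest to miR-126-3p, and triangles the 3 farthest from each arm.

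miRNAs with published roles in endothelial cells or vessel growth were set beside the arms as a list. Of 25 planned names 22 were listed, 18 at 10 TPM or more on average, and the list left out miR-126 itself. Over the 166 tested names miR-126-5p had a higher mean than 159 and miR-126-3p than 123. Within the list miR-126-5p had a higher mean than 20 of the 22 and miR-126-3p than 15, which are no larger parts. The most abundant were miR-10a (32413 ± 15478 TPM, SD, n = 3), which restrains inflammatory signalling in endothelium, miR-27b (22362 ± 7643 TPM), miR-100 (20028 ± 4994 TPM), which represses mTOR, and miR-181a (10570 ± 3738 TPM). Only miR-10a and miR-27b thus had a higher mean than miR-126-5p, and neither was separated from it beyond the spread.

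At the low end of the list stood miR-296-3p (1.63 ± 0.961 TPM) and the hypoxia-induced miR-210 (5.0 ± 1.45 TPM). Its median log2(TPM + 1) lay 1.31, 1.17 and 1.26 above the median of the tested names in libraries 1, 2 and 3, a mean of 1.25 ± 0.07 (SD, n = 3). That level depends on the minimum that defines the tested names and turned to -0.88 with a minimum of 100 TPM. miR-126-5p alone held 2.02% ± 0.654 of TPM, and the list as a whole held 9.27% ± 1.34 (SD, n = 3). The list held 9.84%, 10.2% and 7.73% in libraries 1, 2 and 3 and was thus highest in library 2, where miR-126-5p was lowest and where miR-10a and miR-100 were highest. miR-126-5p divided by the summed list was 0.249, 0.123 and 0.302, the highest ratio being 2.44 times the lowest.

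Markers of other cells that adipose tissue could hold were compared with miR-126-5p in each library. miR-143 and miR-145, taken here as markers of smooth muscle and pericytes, summed to 25.6%, 15.4% and 22.2% of TPM in libraries 1, 2 and 3. Nearly all of this was miR-143, with a mean of 209686 TPM, and which cells it came from was not measured. miR-126-5p divided by this sum was 0.0959, 0.0820 and 0.105. The highest of these ratios was 1.28 times the lowest. That range is not particular to these names. It was 1.25 times for the summed red blood cell markers and 1.17 times for the summed epithelial markers described below. Most of the red blood cell sum was miR-486, and most of the epithelial sum was miR-141. The other red blood cell markers were less steady against miR-126-5p. The difference of log2(TPM + 1), miR-126-5p minus miR-451, was 4.04, 5.28 and 4.09 in libraries 1, 2 and 3. For miR-144 it was 8.16, 9.38 and 8.72. Most tested names were lowest in library 2. miR-145 (961 ± 479 TPM, SD, n = 3) did not keep to miR-143, since it was highest in library 3.

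The red blood cell markers miR-486 (3482 ± 1204 TPM, SD, n = 3), miR-451 (1061 ± 640 TPM) and miR-144 (52.4 ± 33.4 TPM) summed to 6182, 2558 and 5046 TPM. Against this sum miR-126-5p stood at 3.97, 4.94 and 4.63 times in libraries 1, 2 and 3. miR-451 itself was lowest in library 2, where it had 325 TPM, against 1486 and 1371 TPM in libraries 1 and 3. The red blood cell markers were thus present in all 3 libraries. As deposited they were lowest in library 2, as were both miR-126 arms and 91.6% of the tested names. Platelets also carry miR-126, and the part of blood in the level of miR-126 was not tested.

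White blood cell markers varied more in their sum than red blood cell markers did, although miR-451 and miR-144 (SD of log2(TPM + 1), 1.23 and 1.12) varied more between libraries than miR-150, miR-155 and miR-223 (1.00, 0.85 and 0.62). All 5 were listed and 4 averaged 10 TPM or more: miR-150 (209 ± 146 TPM, SD, n = 3), miR-142-5p (106 ± 111 TPM), miR-142-3p (82.3 ± 92.9 TPM) and miR-155 (61.9 ± 39.3 TPM), which is also in the vessel list. The fifth, miR-223, had 7.50 ± 3.77 TPM. Their sum was 914, 190.0 and 297 TPM, and miR-126-5p stood at 26.8, 66.5 and 78.7 times that sum in libraries 1, 2 and 3. Library 1 thus held the most white blood cell miRNA, while its miR-126-5p was close to that of library 3.

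Markers of striated muscle, epithelium and liver were low in all 3 libraries. The limit of detection, set at 3 reads, was 0.437, 0.443 and 0.547 TPM in libraries 1, 2 and 3. None of the 4 muscle miRNAs reached a mean of 10 TPM, with miR-1 at 9.27 ± 3.35, miR-133a at 9.03 ± 7.15, miR-499 at 2.77 ± 1.10 and miR-206 at 0.133 ± 0.231 TPM (SD, n = 3). None of the 5 epithelial miRNAs did either, with miR-141 at 9.87 ± 2.91, miR-200a at 1.03 ± 0.569, miR-205 at 0.767 ± 1.24, miR-200c at 0.40 ± 0.30 and miR-200b at 0.0667 ± 0.115 TPM. The hepatocyte miRNA miR-122 had 0.367 ± 0.252 TPM. Against the 24511, 12638 and 23344 TPM of miR-126-5p, the muscle markers summed to 32.4, 9.70 and 21.5 TPM and the epithelial markers to 13.9, 7.10 and 15.4 TPM. miR-206 was listed at 0 in libraries 2 and 3, miR-200b in libraries 1 and 2, and miR-205 in library 2.

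**Figure D5:**
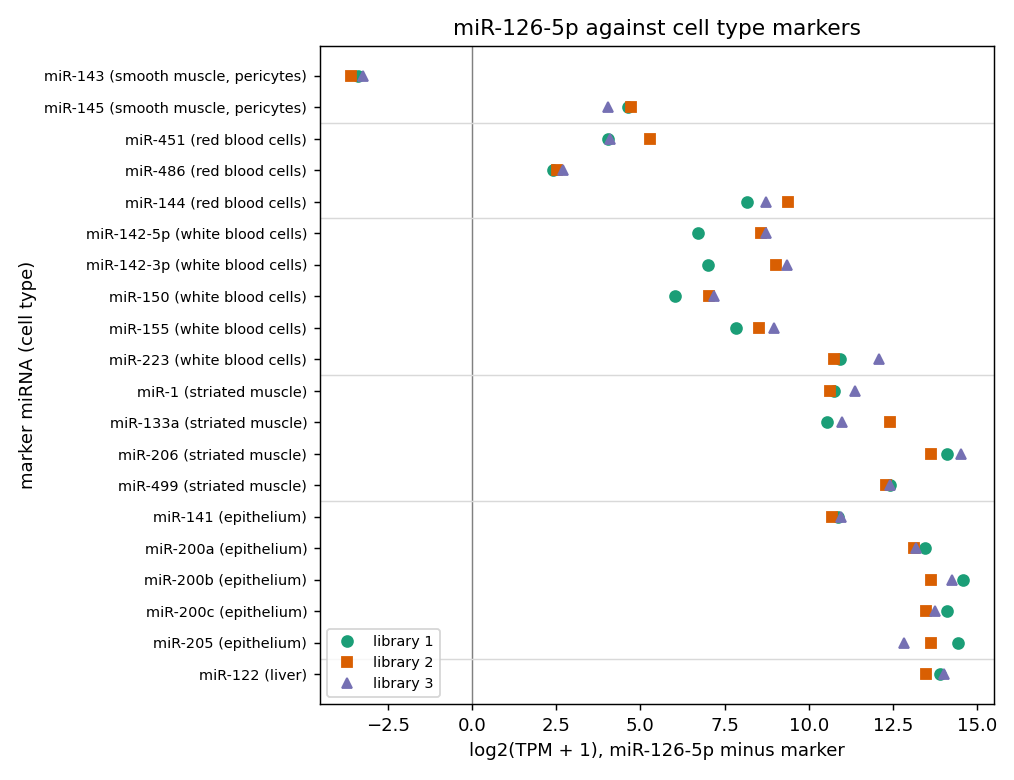
Difference of log2(TPM + 1), miR-126-5p minus each marker miRNA, in libraries 1, 2 and 3; points right of 0 have more miR-126-5p. miR-143 exceeded miR-126-5p in every library and the other markers lay below it; for markers listed at 0 in a library the difference depends on the pseudocount of 1 and is no fold.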

How the data were processed

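Small RNA was sequenced from 3 adipose samples. Per the labels' protocols, RNA was extracted with TRIzol, adaptors were ligated to the small RNA, gel-purified cDNA of a fixed size range was kept, and sequencing used an Illumina HiSeq instrument. Per the submitters' processing notes, the aligner Bowtie and the genome build UMD3.1, of cattle, were used. The counting, annotation and filtering steps were not given in the sources used here. TPM values were deposited by the authors with 1 decimal and 1 column per library, and 0 columns were left unmapped.

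Reads were estimated from the step that values up to 30 TPM share, on which 99.5%, 99.2% and 98.9% of low values lay within 0.05 TPM, against 68.7%, 67.7% and 54.8% for values placed at random. As rounding is coarse against the step, no count model was fitted. Values were analysed as log2(TPM + 1), which understates differences of low names. Arm differences within libraries were tested with limma 3.58.1 in R 4.3.3 over 20 hairpins. The fit was checked on simulated data with the same spread for every hairpin. The real spreads differed, so that check does not show how far the adjusted p holds here. Size factors are medians of ratios over the names averaging 10 TPM or more. Named miRNAs are the members, 3 neighbours on each side in level and in arm difference, the 5 nearest in profile, the 5 highest less abundant arms, the ends of the vessel list and all markers. The 3 farthest in profile were added after the data were seen. Members and lists were chosen with earlier results of these data known. Alternatives covered pseudocounts, minimum means, scaling, removal of miR-10b and leaving out each library.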

Additional observations from a re-analysis of the deposited data

How the results depend on the processing

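Across the alternatives run, the arm difference of miR-126 kept its sign and stayed below an adjusted p of 0.05 in limma, with values between 4.55 and 4.69 and adjusted p between 2.04e-23 and 0.000275. Size factors for the arm comparison and removal of miR-10a and miR-100 from the vessel list were chosen after seeing the data. Without miR-10b in the total the mean shares of miR-126-5p and miR-126-3p were 3.24% and 0.131%, and the SDs of their log2 values were 0.34 and 0.19. With size factors these SDs were 0.12 and 0.24. Leaving out each library in turn gave SDs of 0.050 to 0.68 for miR-126-5p and 0.085 to 0.51 for miR-126-3p, the lowest without library 2 in both cases. The vessel list lay 4.32 above the median of the tested names with a minimum of 1 TPM, 7.53 above it with no minimum and -0.88 from it with 100 TPM, since fewer low names then enter the median. It lay 0.63 above it without miR-10a and miR-100, and 1.09 to 1.58 above it with a library left out. Of 63 alternative values, 49 kept their side of the test, moved by less than 1 SD or, for counts and SDs, stayed within 1.5 times the reported value. No paired analysis was possible because the series holds 1 group; the arms were compared within each library. Depth limits no value of either arm; the number of libraries does.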
